A study of Homo sapiens with 9 samples.

Results

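The neural cell adhesion genes NCAM1, on 11q23, and NCAM2, on 21q21, were followed through lists of genomic domains enriched for H3K9me3, together with TTC12, ANKK1 and DRD2, which lie next to NCAM1. These 5 genes, of 20037 protein-coding genes placed on the genome, were chosen by values measured in these lists. NCAM1 was selected on its covered percent: listed domains covered less of it with LmnB1 than with mCherry. Its 3 neighbours were taken because they share its stretch of chromosome 11, and NCAM2 because it lies in a long joined domain on 21q21 that all lists share. Differences at 11q23 between the constructs are therefore given as a description, with no test, and so is the presence of a domain over NCAM2 in each library. The tests of NCAM2 coverage and of block length use values close to those by which NCAM2 was chosen. The cells were hTERT RPE-1, a widely used human cell line derived from retinal pigment epithelium and kept dividing by added telomerase. H3K9me3 was profiled by Cut&Run, in which a nuclease tethered to the antibody on its mark cuts out the surrounding DNA for sequencing. The LmnB1 group overexpressed mCherry-LmnB1, a fluorescent fusion of the nuclear lamina protein lamin B1, in the clonal lines LmnB1_16 and LmnB1_6. The mCherry group overexpressed the fluorescent protein alone, in the clonal lines mCherry_3 and mCherry_4. All of these cells had received doxycycline at 0.05 ug/mL for 24 hours, and each clonal line gave 2 biological replicates, hence 4 libraries per construct from 2 clones. Replicates of 1 clone are not independent clones, and a clone's own chromatin cannot be told apart from its construct.

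NCAM1, also known as CD56, and NCAM2 encode cell-surface glycoproteins of the immunoglobulin superfamily that join neighbouring cells, and both are best known from the nervous system. DRD2 encodes the dopamine D2 receptor. ANKK1 encodes a protein of the kinase family with ankyrin repeats, and TTC12 encodes a cytoplasmic protein needed to assemble the dynein arms of motile cilia. H3K9me3 marks constitutive heterochromatin. It often lies in long blocks over gene-poor DNA, over silent genes and near the nuclear lamina, a protein mesh of which lamin B1 is part. No RNA was measured in these samples, so nothing is said here about whether any of the genes was expressed.

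The gene starts are shown because the question at each of them is whether the start itself lay inside a listed domain. The sequences are RefSeq promoters of GRCh38.p14, each from 250 bases before a gene's start to 50 bases after it, with every CG in capitals. The table held 3 of the 5 genes, TTC12, ANKK1 and NCAM2. NCAM1-AS2, an antisense RNA gene that overlaps the lower-coordinate end of NCAM1, is printed beside them.
NCAM1-AS2, chr11:112963411-112963710, minus strand: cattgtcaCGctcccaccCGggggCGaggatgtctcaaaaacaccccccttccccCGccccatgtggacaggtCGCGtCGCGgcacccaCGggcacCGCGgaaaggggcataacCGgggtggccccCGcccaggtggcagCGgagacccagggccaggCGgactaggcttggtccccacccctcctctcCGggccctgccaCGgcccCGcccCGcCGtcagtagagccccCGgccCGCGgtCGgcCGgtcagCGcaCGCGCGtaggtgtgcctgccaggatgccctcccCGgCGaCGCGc
TTC12, chr11:113314333-113314632, plus strand: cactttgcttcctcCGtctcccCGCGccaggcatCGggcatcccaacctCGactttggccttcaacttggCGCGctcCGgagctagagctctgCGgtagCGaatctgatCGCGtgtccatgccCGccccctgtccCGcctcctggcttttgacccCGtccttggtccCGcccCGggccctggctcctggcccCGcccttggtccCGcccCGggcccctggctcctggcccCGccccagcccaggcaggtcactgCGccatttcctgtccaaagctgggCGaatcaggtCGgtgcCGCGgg
ANKK1, chr11:113387529-113387828, plus strand: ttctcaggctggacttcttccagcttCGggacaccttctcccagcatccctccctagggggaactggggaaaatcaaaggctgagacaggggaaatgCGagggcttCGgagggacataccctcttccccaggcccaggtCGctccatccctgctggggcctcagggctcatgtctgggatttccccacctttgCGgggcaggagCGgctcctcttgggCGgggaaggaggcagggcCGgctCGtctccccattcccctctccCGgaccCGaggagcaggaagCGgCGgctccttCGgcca
NCAM2, chr21:21146912-21147211, plus strand: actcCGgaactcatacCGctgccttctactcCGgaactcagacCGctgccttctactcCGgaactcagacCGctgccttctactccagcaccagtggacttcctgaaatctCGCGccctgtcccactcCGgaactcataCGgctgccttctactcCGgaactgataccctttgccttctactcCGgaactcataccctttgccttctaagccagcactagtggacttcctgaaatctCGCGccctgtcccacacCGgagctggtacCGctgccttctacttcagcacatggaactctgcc
The NCAM1-AS2 promoter held 33 CG and was 74.7% G or C, and 17.2% of the 35116 promoters in the table held at least as many CG. The TTC12 promoter held 26 CG, a number reached by 30.1% of promoters. ANKK1 with 14 CG and NCAM2 with 16 CG lay near the middle of the table, whose median was 14. The GC box, searched as GGGCGG and its reverse complement CCGCCC, occurred 3 times at NCAM1-AS2, 5 times at TTC12, once at ANKK1 and 0 times at NCAM2, and 45.0% of all promoters held it on either strand. The NCAM2 window is built on a repeat: tgccttctactccggaact, a run of 19 bases, occurs in it 4 times, and no other promoter in the table holds that run. This NCAM2 start lies inside the annotated gene body, since other RefSeq transcripts of NCAM2 begin at lower coordinates.

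Each library had 1 deposited list of domains, and the lists held 5366 to 11322 domains over 357 to 646 Mb with LmnB1 and 6060 to 8579 domains over 320 to 529 Mb with mCherry. Library depth relative to the shared input, read from the lists, was 0.880 to 1.01 with LmnB1 and 0.421 to 0.859 with mCherry, so every LmnB1 library was deeper than every mCherry library and depth and construct cannot be told apart. Enrichment over input, pooled over all domains of a library, was lowest in LmnB1_6 replicate 2 and mCherry_4 replicate 2, at log2 values of 0.71 and 0.72. The lowest log2 enrichment in every list was just above 0.60, so a stretch that is not listed may carry H3K9me3 just below that threshold and is not shown to lack it. Over 229 domains with the same borders in both mCherry_3 lists, read counts did not differ beyond sampling noise (chi-square p = 0.197), although the lists themselves differed. Chi-square over its degrees of freedom was 1.08 there and 1.10 over 648 such domains in LmnB1_16 (chi-square p = 0.0380), so these 2 pairs were about equally close by this measure. It was 1.73 over 61 such domains in LmnB1_6 (chi-square p = 0.000368) and 1.67 over 28 in mCherry_4 (chi-square p = 0.0162). Domains with the same borders in both lists favour agreement, so these ratios do not speak for the whole lists. Counting the mCherry_3 pair as 1 library left the NCAM1 difference at -39.1 points and the NCAM2 difference at -0.0960 points, the same in direction as with both kept.

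Listed domains covered a smaller part of NCAM1 in every LmnB1 library than in any mCherry library. The gene body spans chr11:112961420-113278436 (GRCh38), 317 kb, and is transcribed from its lower coordinate upward. Domains covered 19.9% of it in LmnB1_16 replicate 1, 9.02% in LmnB1_16 replicate 2 and 0 in both LmnB1_6 replicates, against 53.3% and 35.0% in mCherry_3 and 46.2% and 48.6% in mCherry_4. The highest LmnB1 library thus lay below the lowest mCherry library, and the clones of the LmnB1 group differed from each other, with LmnB1_6 at 0 throughout. The means were 7.22 ± 9.44% with LmnB1 and 45.8 ± 7.76% with mCherry (SD, n = 4 libraries each), a difference of -38.6 percentage points. For scale, 2304 genes had a mean coverage of at least 5% and were compared, and their median difference was 3.73 points upward with LmnB1. Among these genes, groups that did not overlap were found lower with LmnB1 in 9, or 0.391%, and higher with LmnB1 in 62, or 2.69%. NCAM1 is 1 of the 9, and since it was picked for this difference the count is given only as its setting. In limma, with Benjamini-Hochberg adjustment at 0.05, 5 genes were higher (0.217%) and 2 lower (0.0868%) with LmnB1.

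**Figure D1:**
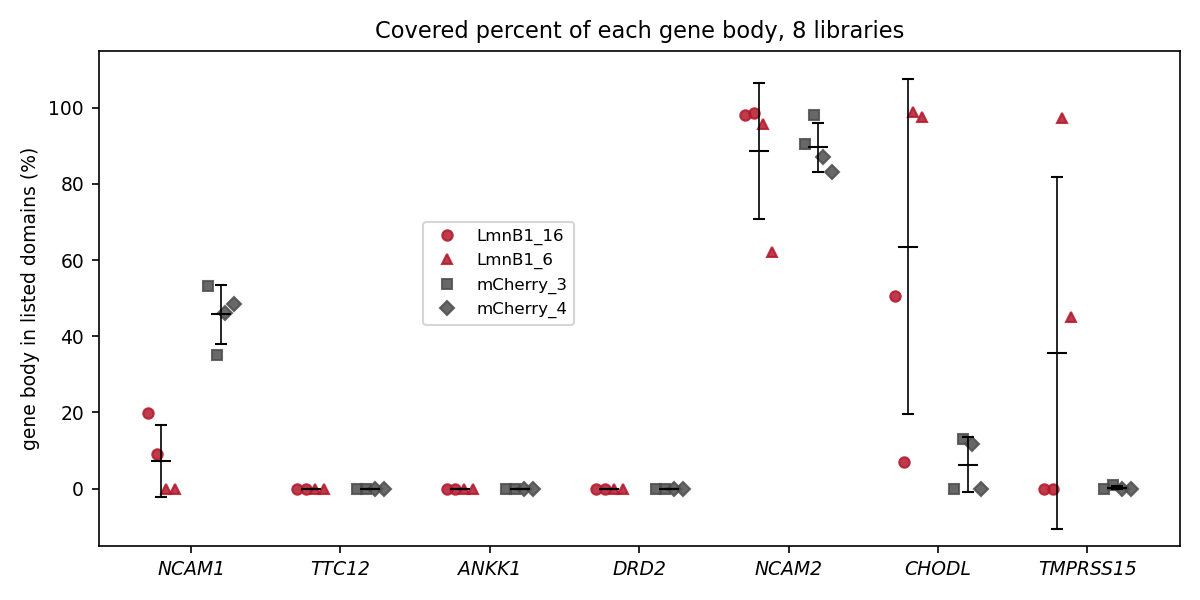
Percent of each gene body inside listed H3K9me3 domains (y axis) for the 5 genes and for CHODL and TMPRSS15, which lie left of the 21q21 block. Points are libraries, shaped by clone, and the bars show the mean and SD of 4 LmnB1 (red, left) and 4 mCherry (grey, right) libraries. NCAM1 lies at 0 to 19.9% with LmnB1 and 35.0 to 53.3% with mCherry, TTC12, ANKK1 and DRD2 lie at 0 in all 8 libraries, and NCAM2 overlaps between the constructs.

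The difference sat in the lower part of the gene. Over the lower 159 kb of NCAM1, domains covered 32.2% and 18.0% in LmnB1_16 and 0 in both LmnB1_6 libraries, against 81.4% and 70.03% in mCherry_3 and 87.4% and 97.2% in mCherry_4. The means were 12.6 ± 15.6% with LmnB1 and 84.0 ± 11.4% with mCherry (SD, n = 4 each). The upper 159 kb was mostly outside the lists in both groups. It was covered to 7.57% in LmnB1_16 replicate 1 and to 0 in the other LmnB1 libraries, and to 25.2% in mCherry_3 replicate 1, 5.09% in mCherry_4 replicate 1 and 0 in the other mCherry libraries.

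Cut into 10 sections of equal length, numbered from its lower end, NCAM1 showed where the lists parted. Section 1 averaged 41.7% with LmnB1, all of it from LmnB1_16, where 88.7% and 77.9% were covered, and 92.3% with mCherry. In sections 3 and 4 no LmnB1 library had a domain, while mCherry averaged 97.7% and 90.8%. Section 5 separated the mCherry libraries themselves, with 30.8% and 0 in mCherry_3 and 81.1% and 97.1% in mCherry_4. An isolated patch in sections 8 and 9 was listed in LmnB1_16 replicate 1, with 37.9% of section 9, and in mCherry_3 replicate 1, with 50.6% and 75.6%, and in no other library.

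**Figure D2:**
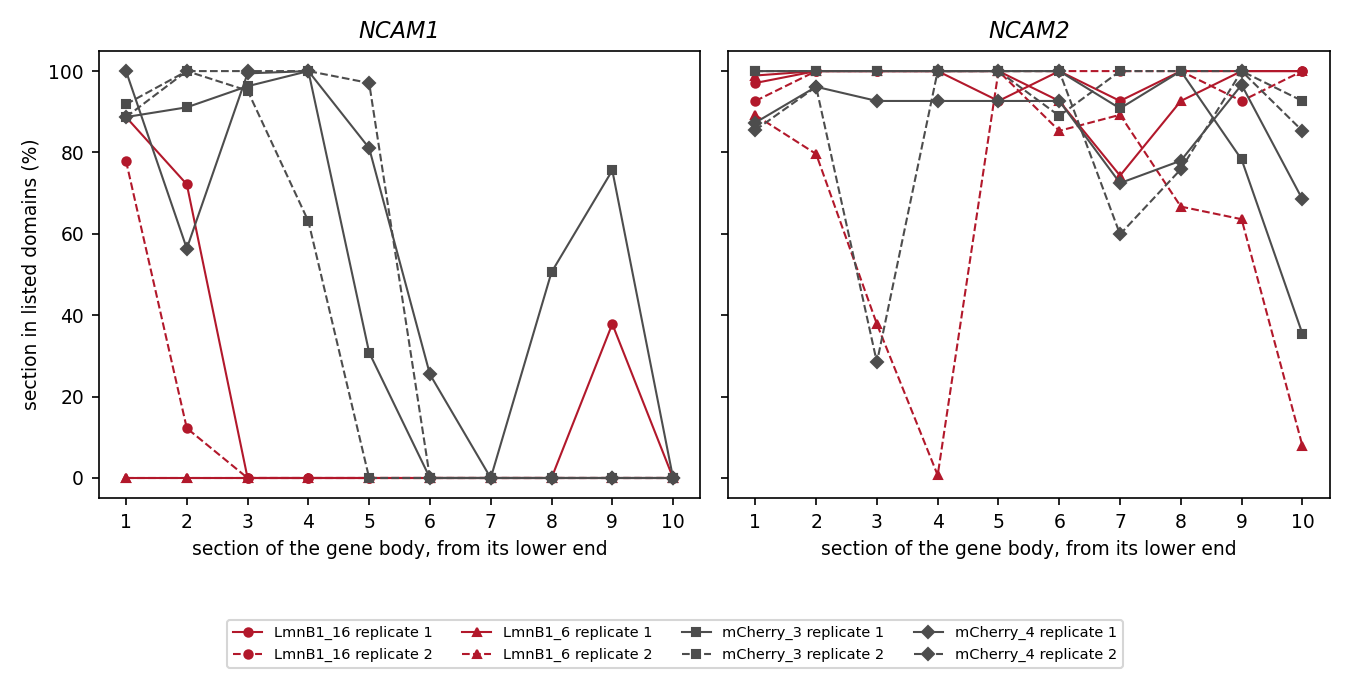
Percent of each of 10 equal sections of the gene body inside listed domains (y axis), in order from the lower-coordinate end (x axis), for NCAM1 (left) and NCAM2 (right); each line is 1 library, LmnB1 in red and mCherry in grey, with solid lines for replicate 1 and dashed lines for replicate 2. In sections 3 and 4 of NCAM1 all 4 LmnB1 libraries are at 0 and the mCherry means are 97.7% and 90.8%, while NCAM2 stays covered in most sections of most libraries and dips to 0.690% in section 4 in LmnB1_6 replicate 2.

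The domains over NCAM1 were the right-hand end of a chain that began in the gene-free DNA before it. For this description, domains that ended no more than 300 kb before NCAM1, or later, and lay less than 75 kb apart were counted as 1 chain, distances chosen after the values were seen. The chain began at 112684001 in both LmnB1_16 libraries and at 112701001 in LmnB1_6 replicate 1, and at 112681001, 112684001, 112666001 and 112685001 in the mCherry libraries. Within this limit, the left borders lay close together wherever a chain was listed. The limit itself can set these borders, since domains that ended further left were not counted. Its right end lay 54.6 kb and 35.6 kb past the lower end of NCAM1 in LmnB1_16 and 78.4 kb short of the gene in LmnB1_6 replicate 1, with no chain listed in LmnB1_6 replicate 2. In the mCherry libraries it lay 137 kb and 119 kb inside NCAM1 in mCherry_3 and 167 kb and 158 kb inside it in mCherry_4. The right border thus lay further into NCAM1 in each mCherry library than in any LmnB1 library, and replicates of a clone lay 9 to 19 kb apart where both had a chain.

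Within the gene, 49 kb were listed in all 4 mCherry libraries and in no LmnB1 library, at chr11:113026001-113055000 and chr11:113060001-113080000. Of the 1 kb windows of NCAM1, 34.9% lay in no list, and none lay in 7 or 8 lists. In the DNA before NCAM1 the libraries of the constructs overlapped, although the means lay about as far apart as within the gene. Over the 280 kb before the gene, domains covered 91.1% and 84.8% in LmnB1_16 and 40.7% and 0 in LmnB1_6, against 99.9% and 98.6% in mCherry_3 and 96.2% and 71.8% in mCherry_4. The means were 54.1 ± 42.5% with LmnB1 and 91.6 ± 13.3% with mCherry (SD, n = 4 each), which is -37.5 points for LmnB1, with LmnB1_6 lowest. LmnB1_16 replicate 1, at 91.1%, lay above mCherry_4 replicate 2. The whole interval from PLET1 to NCAM1, 701 kb with no protein-coding gene, was covered to 40.4%, 33.9%, 18.1% and 0 with LmnB1 (LmnB1_16, then LmnB1_6) and to 42.3%, 40.5%, 40.2% and 28.7% with mCherry (mCherry_3, then mCherry_4). LmnB1_6 replicate 2 had no domain in the 8426 kb that hold NCAM1, so in that library the gene was part of a much longer unlisted stretch.

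**Figure D3:**
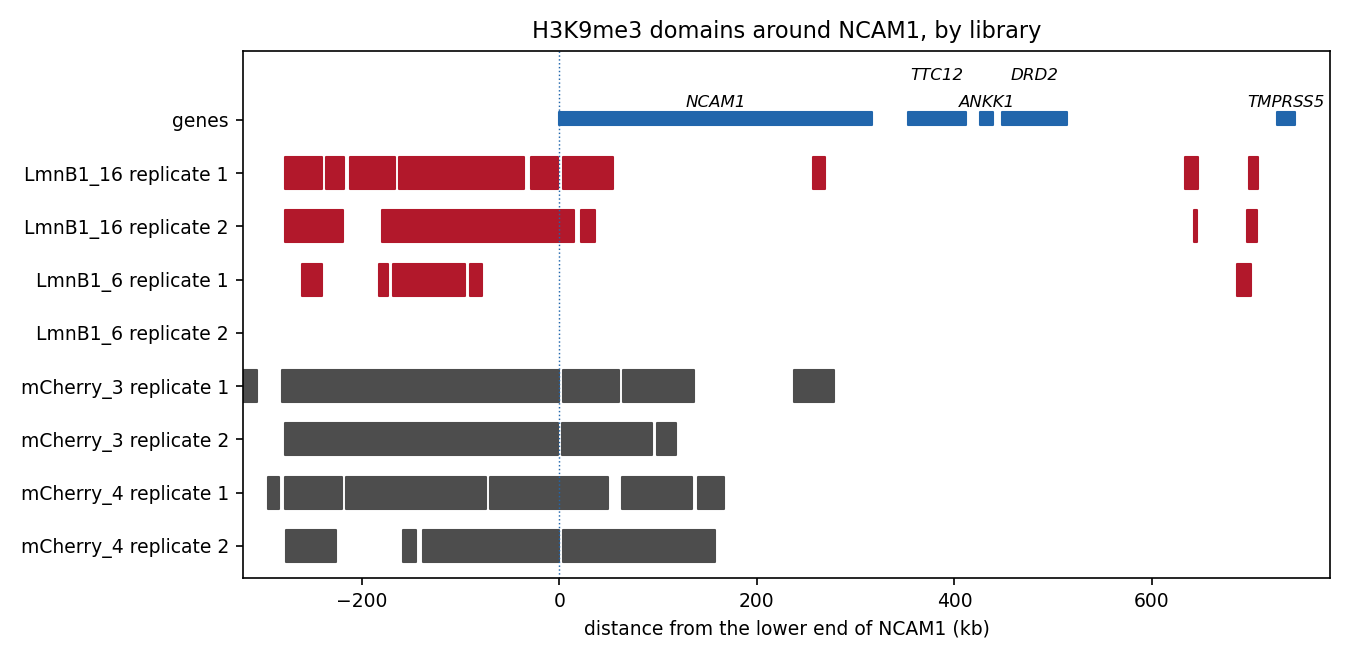
Listed H3K9me3 domains around NCAM1 in the 8 libraries (rows; LmnB1 red above, mCherry grey below) against the distance from the lower end of NCAM1 in kb (x axis), with gene bodies in blue at the top. Domains run into NCAM1 by 119 to 167 kb in the mCherry libraries and by 35.6 and 54.6 kb in LmnB1_16, end 78.4 kb before it in LmnB1_6 replicate 1, and are absent from TTC12 to DRD2 in every library.

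Most of the domains that reached NCAM1 had a low enrichment for their own list, except in mCherry_4 replicate 1. The 4 such domains in the LmnB1_16 libraries had log2 enrichments over input of 0.62 to 0.84, with a median of 0.72, and the 9 in the mCherry libraries had 0.62 to 0.96, with a median of 0.73. Ranked by score within their own lists, they stood at percentiles of 2.17 to 35.1 with LmnB1, with a median of 10.3, and of 4.20 to 78.0 with mCherry, with a median of 24.0. The 3 domains of mCherry_4 replicate 1 were higher, at percentiles of 41.5, 45.6 and 78.0, and their pooled log2 of 0.84 was close to the 0.86 of that whole library. Pooled over a library, the log2 enrichment of these domains was 0.69 and 0.83 in LmnB1_16, against 0.67 and 0.66 in mCherry_3 and 0.84 and 0.65 in mCherry_4. Domains of the chain that lay wholly before NCAM1 were higher, with a median log2 of 0.83 over 10 domains with LmnB1 and 0.84 over 8 domains with mCherry. The NCAM1 difference was smaller when the lists were cut back: it was -23.7 points where every list was reduced to the same covered length, -10.4 points for domains with a log2 of at least 0.8, and -2.05 points for the highest-scoring 50% of each list. In that last setting NCAM1 was listed only in mCherry_4 replicate 1, to 8.20%. At a log2 of at least 0.8 it was covered to 46.2% in mCherry_4 replicate 1, to 4.60% in LmnB1_16 replicate 2 and to 0 in every other library. At equal covered length the difference came from mCherry_4 alone, at 46.2% and 48.6%, with the other 6 libraries at 0. The mCherry_4 lists are among the shortest in covered length, and the domain kept in its replicate 2 had a log2 of 0.65.

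The start of NCAM1 often fell between 2 listed domains. The lower end of the gene, at 112961420, and the start of NCAM1-AS2, at 112963460, both lay inside a domain in LmnB1_16 replicate 2 and mCherry_4 replicate 1. In LmnB1_16 replicate 1 both fell in a gap of 5 kb between domains, and in both mCherry_3 libraries and mCherry_4 replicate 2 in a gap of 4 kb, which is the smallest gap in any of the lists. The CG-rich NCAM1-AS2 promoter printed above was thus flanked closely by listed domains on both sides in these 4 libraries. In LmnB1_6 no domain was listed at either point. For scale, of 763 genes that were covered to at least 50% on average and had a promoter in the table, the start lay in a domain in all 8 lists for 167, or 21.9%, and in none for 53, or 6.95%. NCAM1, covered to 26.5% on average and without a promoter in the table, is not among these more covered genes.

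TTC12, ANKK1 and DRD2 were covered to 0 in all 8 libraries. TTC12 (chr11:113314583-113373297, 58.7 kb) begins 36.1 kb after NCAM1 ends. ANKK1 (chr11:113387779-113400416, 12.6 kb) follows 14.5 kb further on, and DRD2 (chr11:113409605-113475398, 65.8 kb) 9.19 kb after that. The 197 kb from the end of NCAM1 to the end of DRD2 held no domain in any list, so the starts of TTC12 and ANKK1 lay outside domains in every library. A difference between the constructs could not be measured at these 3 genes, which had no listed domain in either group.

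Most of the wider 11q23 neighbourhood had no listed domain either. Of the 23 other protein-coding genes within 1 Mb of the span from NCAM1 to DRD2, 22 had 0 coverage in all 8 libraries, as did 15897 of all genes placed, or 79.3%. The exception was NXPE2, a gene of the neurexophilin and PC-esterase domain family, with 50.3%, 50.3%, 47.4% and 34.8% with LmnB1 and 49.4%, 48.9%, 39.1% and 21.5% with mCherry. The constructs overlapped at NXPE2, and the genes at 0 in every library could not differ.

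Of the 5 dopamine receptor genes, DRD2 included, 4 were at 0 in all 8 libraries, a share close to the 79.3% of all genes. DRD5, the D5 receptor gene of 2.38 kb, was covered to 100% in all LmnB1 and 3 mCherry libraries and to 0 in mCherry_4 replicate 2. It was the only one tested, with a limma adjusted p of 0.911.

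NCAM2 stood inside a domain block in every library, and no difference in its coverage between the constructs passed the test. Because NCAM2 was chosen for a domain that all lists share, a small difference was favoured in advance. The test is thus no evidence that the constructs are equal here. The gene body spans chr21:20998409-21543329 (GRCh38), 545 kb. Domains covered 98.2% and 98.5% of it in LmnB1_16 and 95.9% and 62.0% in LmnB1_6, against 90.5% and 98.2% in mCherry_3 and 87.0% and 83.1% in mCherry_4. The means were 88.7 ± 17.8% with LmnB1 and 89.7 ± 6.40% with mCherry (SD, n = 4 each), and limma with clone as a random block gave a difference of -1.02 points with a standard error of 11.6 and an adjusted p of 1. With an error of that size, even a difference larger than the error itself, in either direction, would not have been detectable. LmnB1_6 replicate 2 was the low library of its group, and without it the difference was 7.62 points. NCAM2 coverage was also much lower in both groups when the lists were cut back. At equal covered length NCAM2 averaged 16.4% with LmnB1 and 31.3% with mCherry, and for the highest-scoring 50% of each list 6.61% and 8.26%, with both LmnB1_16 and both mCherry_3 libraries at 0 in each setting.

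The enrichment of the NCAM2 domains was also much alike. Log2 enrichment over input, pooled over the domains that overlap NCAM2, was 0.93 and 0.79 in LmnB1_16 and 0.82 and 0.67 in LmnB1_6, against 0.75 and 0.78 in mCherry_3 and 0.81 and 0.68 in mCherry_4. The means were 0.80 ± 0.10 with LmnB1 and 0.76 ± 0.06 with mCherry (SD, n = 4 each). They differed by 0.05 on the log2 scale, with a two-sided exact permutation p of 0.429 over 70 assignments of libraries, where the smallest possible is 0.0286. Over the 6 assignments of whole clones p was 0.667, and the smallest possible is 0.333, so clones alone could not pass 0.05. Set against all domains of its own library, NCAM2 was below the pooled log2 enrichment in all 8, by 0.04 to 0.21. The difference between constructs then turned to -0.05 (exact permutation p = 0.286). The NCAM2 domains were accordingly in the lower part of each list by score, with median percentiles of 24.3 to 42.7 with LmnB1 and 30.3 to 35.0 with mCherry.

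Along NCAM2, domains were listed in most libraries at every point, with dips in some. Of its 1 kb windows, 45.8% lay in all 8 lists and none lay in fewer than 5. Coverage was lowest in the 2 libraries that also had the lowest pooled enrichment. LmnB1_6 replicate 2 had 37.8%, 0.690% and 7.94% of sections 3, 4 and 10, and mCherry_4 replicate 2 had 28.4% of section 3. In mCherry_3 replicate 1 section 10 was covered to 35.5%, and over all libraries section 10 averaged 77.0% with LmnB1 and 70.5% with mCherry. The lower end of NCAM2 lay inside a domain in 6 libraries, and in gaps of 4 kb in LmnB1_16 replicate 1 and 5 kb in LmnB1_6 replicate 1. The start with the repeat-bearing promoter printed above, at 21147162, lay inside a domain in 6 libraries as well, and outside in LmnB1_6 replicate 2 and mCherry_4 replicate 2, in gaps of 88 kb and 39 kb. Each point was thus in a domain in both constructs.

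The block around NCAM2, made by joining the domains of all 8 lists, spans chr21:18876001-25313000, 6.44 Mb, of which NCAM2 is 8.47%. It holds no other protein-coding gene. Listed domains covered 6.30 and 6.28 Mb of it in LmnB1_16 and 6.27 and 4.66 Mb in LmnB1_6. The mCherry_3 replicates covered 6.04 and 6.20 Mb, and the mCherry_4 replicates 5.56 and 4.25 Mb. LmnB1 averaged 5.88 ± 0.815 Mb and mCherry 5.51 ± 0.883 Mb (SD, n = 4 libraries each), which is 0.366 Mb more with LmnB1, with a two-sided exact permutation p of 0.457 over libraries and 0.667 over clones. The replicates of LmnB1_6 and of mCherry_4 differed from each other by more than the constructs did. The block was picked because all lists share it, so these permutation tests are no evidence that its length is equal.

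The same length was cut into more pieces in some libraries than in others. The block held 11 and 15 domains in LmnB1_16 and 22 and 48 in LmnB1_6, against 30 and 23 in mCherry_3 and 112 and 78 in mCherry_4, or 24.0 ± 16.6 with LmnB1 and 60.8 ± 42.0 with mCherry (SD, n = 4 each). The longest single domain was 2.02, 1.43, 0.993 and 0.810 Mb with LmnB1 and 0.668, 1.02, 0.233 and 0.241 Mb with mCherry. Both measures overlapped between the constructs. The library with the most pieces, mCherry_4 replicate 1, also had the lowest depth, 0.421, but mCherry_4 replicate 2, with 78 pieces, was at 0.859 and the mCherry_3 replicates, with fewer, at 0.819 and 0.816. The part of depth in these values was not tested.

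**Figure D4:**
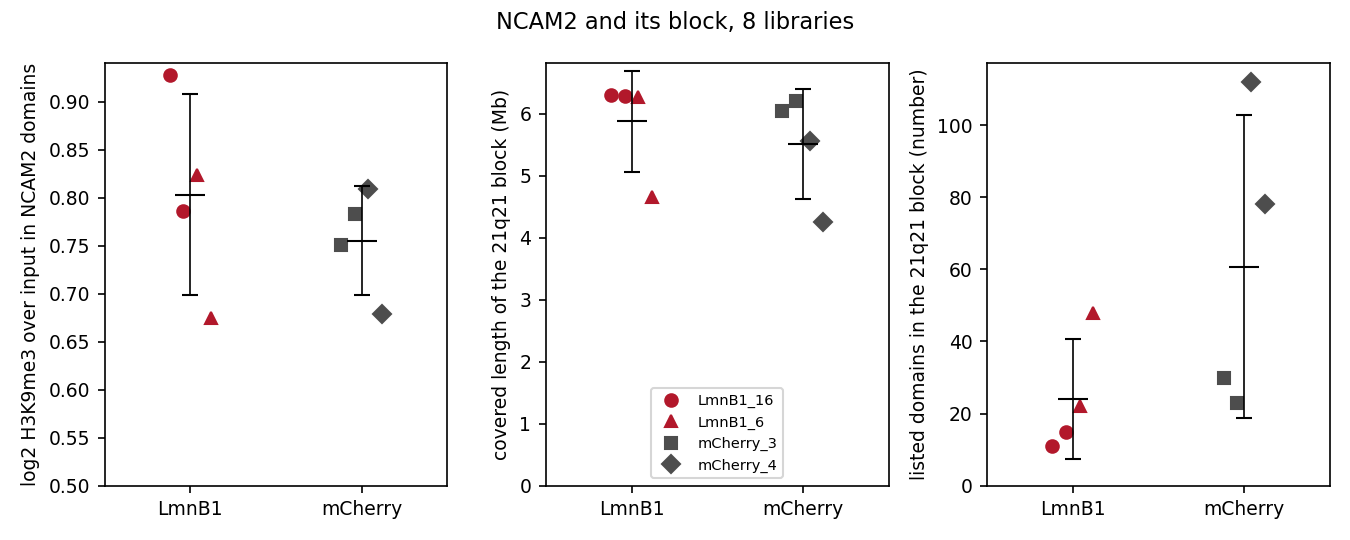
For each library, log2 enrichment over input in the domains that overlap NCAM2 (left, axis from 0.5), covered length of the 21q21 block in Mb (middle) and number of listed domains in the block (right), LmnB1 in red left of mCherry in grey; points are libraries, shaped by clone, and bars are the mean and SD of 4 libraries. The constructs overlap in all 3 measures.

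The right end of the block lay at nearly the same place in all libraries. The last domain ended between 25225000 and 25313000 in all 8 libraries, a spread of 88 kb, which is 273 to 361 kb before MRPL39. MRPL39, a mitochondrial ribosomal protein gene, and behind it JAM2, ATP5PF, GABPA and APP, the amyloid precursor protein gene, were at 0 in every library. Coverage left of the block varied more. The nearest gene there, TMPRSS15, ends at 18485884, before the block begins at 18876001, so domains over it and over CHODL are not part of the block. CHODL, which encodes the membrane lectin chondrolectin, was covered to 50.6% and 6.86% in LmnB1_16 and 98.9% and 97.7% in LmnB1_6, against 0 and 13.1% in mCherry_3 and 11.7% and 0 in mCherry_4. TMPRSS15, the enteropeptidase gene, had 0 and 0 in LmnB1_16 and 97.2% and 45.1% in LmnB1_6, against 0 and 0.869% in mCherry_3 and 0 in both mCherry_4 libraries. Both genes were thus covered most in the clone LmnB1_6, the same clone that had no domain over NCAM1. At CHODL, LmnB1_16 replicate 1 also lay above every mCherry library, while replicate 2 lay within their range. The left border of the block itself was not compared between libraries.

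**Figure D5:**
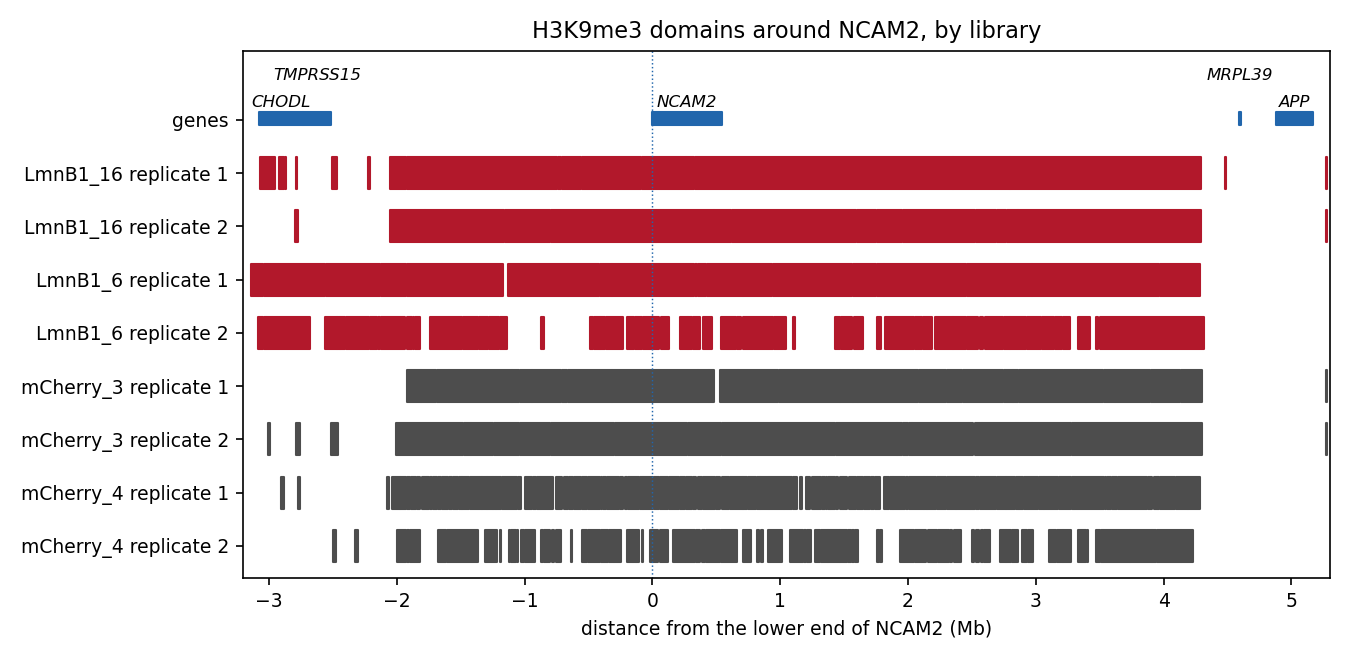
Listed H3K9me3 domains around NCAM2 in the 8 libraries (rows; LmnB1 red above, mCherry grey below) against the distance from the lower end of NCAM2 in Mb (x axis), with gene bodies in blue at the top. Domains lie across the block in every library and end at nearly the same place on the right, before MRPL39, while CHODL and TMPRSS15 on the left are covered to over 45% in both LmnB1_6 libraries.

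Other genes of the same molecular family were compared one by one. Of 33 genes for adhesion molecules of the immunoglobulin superfamily, 19 had no coverage in any library, against 79.3% of all genes placed. The filter of 5% mean coverage was passed by 10. Limma called none of these 10 higher and none lower at an adjusted p of 0.05, against 5 higher and 2 lower among the 2304 genes tested. Only DSCAM had an unadjusted limma p under 0.05, as did 84 of the 2304. Of the 10 differences, 8 were positive and 2 negative, while 911 of the 2304 genes tested had a negative difference. The median was 6.87 points against 3.73 points over all genes tested. CADM1, a synaptic adhesion gene on the same chromosome arm as NCAM1, was covered to 99.5 ± 0.957% with LmnB1 and 94.8 ± 6.24% with mCherry (SD, n = 4 each), and CHL1, of the L1 family, to 98.0 ± 4.10% and 93.6 ± 9.14%. DSCAM, the Down syndrome cell adhesion gene on chromosome 21, had 98.3 ± 1.93% with LmnB1 and 81.6 ± 8.33% with mCherry (SD, n = 4 each; limma adjusted p = 0.907). MDGA2, which encodes a GPI-anchored adhesion protein, had 16.5% and 6.22% in LmnB1_16 and 99.2% and 92.3% in LmnB1_6, against 8.37% to 10.8% in the mCherry libraries (limma adjusted p = 0.907). CADM2, a relative of CADM1, had 23.3%, 14.5%, 98.7% and 32.0% with LmnB1 and 9.50% to 18.0% with mCherry. JAM3, a junctional adhesion gene, was the one with a negative difference of some size, -9.65 points, with 37.4% and 33.8% in LmnB1_16 and 0 in LmnB1_6, against 56.7% and 53.1% in mCherry_3 and 0 in mCherry_4. Its values split by clone and not by construct, unlike those of NCAM1.

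A further list held 12 genes for partners of NCAM1 and for its polysialylation, the addition of sialic acid chains that weakens its adhesion. Of these, 9 had no coverage in any library, a share close to the 79.3% of all genes placed. The other 3 were tested, with none called by limma (smallest adjusted p 0.907). None of the 3 had an unadjusted limma p under 0.05, against 84 of all 2304 genes tested. ST8SIA4, a polysialyltransferase gene, was covered to 100% and 95.8% in LmnB1_6 and to 0 in LmnB1_16 and in all mCherry libraries. ST8SIA2, which encodes the other polysialyltransferase, was covered to 100% in LmnB1_6 replicate 1 and to 0 in the other 7 libraries. FGFR2, a fibroblast growth factor receptor gene, had 11.4%, 23.9%, 93.0% and 0 with LmnB1 and 55.5%, 25.5%, 0 and 0 with mCherry. None of these patterns followed the construct in both clones.

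Genes of at least 50 kb with a coverage pattern most like that of NCAM1 were found by the mean absolute difference in covered percent over the 8 libraries. Among 6260 candidates they were POU3F3, at 11.97 points, GRIA3 at 12.4, ZC2HC1B at 13.7, ABCB5 at 14.1 and FAM78B at 14.1. POU3F3 encodes a neural transcription factor, and was covered to 22.5% in LmnB1_16 replicate 1 and 0 in the other LmnB1 libraries, against 34.9%, 2.32%, 34.9% and 26.8% with mCherry. GRIA3, an AMPA receptor subunit gene, had 33.8%, 4.89%, 0 and 0 with LmnB1 and 39.1%, 45.2%, 34.9% and 2.94% with mCherry. Both overlapped between the constructs. For NCAM2, among 6264 candidates, the nearest were EPHA7, an ephrin receptor gene, at 2.58 points, TNNI3K, a cardiac kinase gene, at 3.11, DPP10, whose product accompanies potassium channels, at 3.18, MALRD1 at 3.36 and RORB, a nuclear receptor gene, at 3.41. Like NCAM2, EPHA7 was lowest in LmnB1_6 replicate 2, with 55.7%, and had 81.6% or more in every other library.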

How the data were processed

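Cut&Run libraries for H3K9me3 were prepared by the EpiCypher CUTANA method with antibody ab8898, per the labels' protocols, giving 4 LmnB1 and 4 mCherry libraries (2 clones per construct, 2 replicates per clone). The remaining sample of the 9, an input from wild-type cells, was used only through the lists. Per the submitters' processing notes the build was GRCh38 (hg38) and the tools included deepTools, SICER, DESeq2 and DiffBind 3.0.15, with no role stated for any of them. Reads had been aligned with a tool not given in the sources used here. In each deposited list a domain has H3K9me3 and input read counts, a p-value and an adjusted p-value, the log2 enrichment and a score of 100 times that log2, all as the authors' values. Domains were listed per library, without pooling, and domain ends fall on multiples of 1000 bp.

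From these lists the covered percent of each RefSeq gene body (GRCh38.p14, 20037 protein-coding genes) was computed as the share of its bases inside domains. The log2 ratio of the deposited counts differed from the deposited log2 value by 1 constant per list, which gave the depth relative to input and the pooled enrichments. Genes with a mean of at least 5% (2304) were compared with limma 3.58.1 in R 4.3.3, clone being a random block, and called at a Benjamini-Hochberg adjusted p of 0.05, and the script was tested on simulated data. Of the 5 genes, NCAM1 and NCAM2 passed this filter. NCAM2 enrichment and block length were compared by exact two-sided permutation. With so few libraries p-values measure the spread between these libraries and clones. The members and gene lists were chosen with earlier results of these data known. Named besides the members are genes within 1 Mb of either locus, list members with a mean of at least 5%, and the 5 genes nearest in pattern. Alternatives were equal covered length, the highest-scoring 50%, a log2 of at least 0.8, joining domains under 10 kb apart, domains of at least 10 kb, 10 kb flanks, no filter, library-mean centring, no clone block, a replicate block, and leaving out each library. Read counts carry counting error only, and no per-base coverage was used.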

Additional observations from a re-analysis of the deposited data

Results flagged for a closer look

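In 3 of the 20 sets of 4 libraries examined, 1 library stood apart from its group. Chance gives about 1 in 20 only for independent sets of values without a floor or ceiling. These sets overlap, as NCAM2 lies in the block, and hold values of exactly 0, so the counts cannot be set against that rate. NCAM2 was covered to 62.0% in LmnB1_6 replicate 2, against 95.9 to 98.5% in the other LmnB1 libraries. The same library covered 4.66 Mb of the 21q21 block, against 6.27 to 6.30 Mb in the other 3, and it also had the lowest pooled log2 enrichment of all libraries, 0.71. The part of that low enrichment in both values was not tested. TMPRSS15 was covered to 0.869% in mCherry_3 replicate 2 and to 0 in the other mCherry libraries, where any value above 0 would have been flagged.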

How the results depend on the processing

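The NCAM1 difference was negative under each alternative, but the groups did not stay apart in all of them. At equal covered length, at a log2 of at least 0.8 and for the highest-scoring 50%, some mCherry libraries were at 0 like LmnB1 libraries. It was -38.6 points as reported and -42.8 to -36.1 points when any 1 library was left out, and it shrank to -23.7 points at equal covered length, -10.4 points at a log2 of at least 0.8 and -2.05 points for the highest-scoring 50%. DRD2 stayed at 0 under all of them. The NCAM2 difference, -1.02 points, was -14.9 points at equal covered length, turned to 25.7 points at a log2 of at least 0.8, and ranged from -7.83 points without LmnB1_6 replicate 1 to 7.62 points without LmnB1_6 replicate 2, with 1.46 points without mCherry_3 replicate 2; none passed limma's threshold. The NCAM2 enrichment difference, 0.05, turned to -0.013 at a log2 of at least 0.8, where 3 libraries had no value, and to -0.0502 relative to the library. The block difference, 0.366 Mb, turned to -1.05 Mb at equal covered length (exact permutation p = 0.371), and ranged from -0.0546 Mb without mCherry_4 replicate 2 to 0.773 Mb without LmnB1_6 replicate 2. The count of genes higher with LmnB1, 5, was 2 at a log2 of at least 0.8, and 5 to 57 with 1 library left out: 57 without LmnB1_6 replicate 2 and 9 without either mCherry_3 library. The count lower, 2, was 1 for the highest-scoring 50%, 0 in limma at a log2 of at least 0.8 (2 at an unadjusted p under 0.05), and 2 to 8 with 1 library left out: 8 without mCherry_4 replicate 2 and 4 without LmnB1_16 replicate 1. The cause of these shifts was not tested. Correlations of same-numbered deviations between clones ran from -0.02 to 0.10, and the main fit did not pair samples by replicate number. In every clone, however, replicate 2 had fewer domains, less covered length and lower pooled enrichment than replicate 1. The drop ran from 11322 to 7127 domains in LmnB1_16 and only from 6115 to 6060 in mCherry_3. Whether replicate number marks a batch was not tested. A replicate block gave 6 higher, 3 lower and -1.02 points for NCAM2. Depth was lower in all mCherry libraries, and a region just under the list threshold cannot be told from one without the mark.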

Other observations

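Beyond DRD2, domains were listed in some LmnB1 libraries and in no mCherry library, and LmnB1_6 replicate 2 was at 0 like the mCherry libraries. In the 212 kb between DRD2 and TMPRSS5, a serine protease gene, listed domains covered 10.4% and 6.13% in LmnB1_16 and 6.60% and 0 in LmnB1_6, and 0 in all 4 mCherry libraries. These were short domains. A stretch around chr11:113604001-113607000 was listed in both LmnB1_16 libraries, as 3 kb with a log2 enrichment of 2.18 in replicate 2 (82 H3K9me3 reads against 18 input reads, percentile 99.6 of its list by score) and as part of a 13.0 kb domain with a log2 of 0.96 in replicate 1. A second stretch, chr11:113648001-113669000, held a domain of 9 to 14 kb in each of LmnB1_16 replicate 1, LmnB1_16 replicate 2 and LmnB1_6 replicate 1. Their log2 values were 0.76, 0.76 and 0.61, and they stood low in their own lists by score, at percentiles of 13.8, 22.6 and 0.961. These values were picked after the lists were seen, and the difference was not tested. Every LmnB1 library was also deeper than every mCherry library, and the part of depth was not tested.

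Several genes named above were covered almost wholly in LmnB1_6 replicate 1 and hardly in LmnB1_16 or mCherry. MDGA2, ST8SIA4 and TMPRSS15 had 99.2%, 100% and 97.2% in LmnB1_6 replicate 1, and 92.3%, 95.8% and 45.1% in LmnB1_6 replicate 2. In LmnB1_16 they had at most 16.5%, 0 and 0, and in mCherry at most 10.8%, 0 and 0.869%. With 1 such clone, the clone and the construct cannot be told apart for them.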
